A study of Bos taurus and Sus scrofa with 10 samples.

Results

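The genes described here belong to 2 neighbouring imprinted regions, one around H19 and IGF2 and one around KCNQ1. They were chosen by name: H19, IGF2, KCNQ1, CDKN1C, PHLDA2, SLC22A18, NAP1L4, TSSC4, CD81 and OSBPL5. Of the 10 symbols 9 matched a row in at least one species. The cow table of 22845 rows held 8 of them, the pig table of 21867 rows held 6, and 5 were found in both (NAP1L4, CD81, OSBPL5, PHLDA2 and SLC22A18). IGF2, CDKN1C and TSSC4 were matched in cow only, KCNQ1 in pig only, and H19 in neither, so H19 was not analysed here.

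RNA sequencing of total RNA was used to follow preimplantation development in cow (Bos taurus) and pig (Sus scrofa). For each species 1 library was made from oocytes, 1 from embryos of 2-4 cells, 1 from embryos of 8-16 cells, 1 from morulae and 1 from blastocysts, without a treatment or a genotype being named. Breed, age of the embryos in hours, way of fertilisation and culture, and the number of oocytes or embryos per library are not given in the sources used here. With 1 library per group no difference has a replicate check, and intervals cover counting error only. Values are reads per 1000000 reads of the library (RPM), and a level of 0 reads still allows up to 3 reads, the floor. Differences are of log2(RPM + 1), later minus earlier stage, and a gene was called changed at a difference of 2 or more in size. Genes below 1 RPM at both stages were not compared.

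Imprinted genes are expressed mainly from 1 parental copy, as set by DNA methylation of an imprinting control region. In well studied mammals the paternally methylated control region upstream of H19 lets the paternal copy express IGF2, a fetal growth factor, and the maternal copy express the noncoding RNA H19. The neighbouring KCNQ1 region has a maternally methylated control region inside KCNQ1. From the paternal copy it gives rise to an antisense noncoding RNA that silences nearby genes, among them the growth restraining genes CDKN1C and PHLDA2. Genes farther from the control region, such as NAP1L4, TSSC4, CD81 and OSBPL5, are imprinted mainly in the placenta or in some species only. The values here sum both parental copies and do not show which copy was read.

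The libraries held between 3002751 and 14182046 reads, the most in the cow blastocyst library, so the floor ranged from 0.212 to 0.999 RPM. The mitochondrial share of reads ran from 2.74% to 30.2% in cow and from 6.06% to 18.6% in pig, the most in each species in the blastocyst library. Oocyte markers (8 of 8 found in cow, 6 of 8 in pig) summed to 5501 RPM in cow oocytes and 0.282 RPM in cow blastocysts, while the pig sums were 5071 and 21.2 RPM. Trophectoderm markers (6 of 7 found in cow, 7 of 7 in pig) reached 3674 RPM in the cow and 8781 RPM in the pig blastocyst library, where none was at 0 reads. Of 4 inner cell mass markers 4 were found in cow, at 193 RPM in the blastocyst library, and 2 in pig, both at 0 reads there. Cumulus cell markers (12 of 13 found in cow, 10 of 13 in pig) summed to between 60.6 and 319 RPM in cow and between 129 and 380 RPM in pig, and 2 to 5 of them were at 0 reads in each library.

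In cow IGF2, CDKN1C and SLC22A18 gave few or no reads. IGF2, the growth factor itself (cow chromosome 29, 50046626 to 50065230), had 0, 2, 1, 0 and 0 reads in the cow oocyte, 2-4 cell, 8-16 cell, morula and blastocyst libraries. The highest of these values was 0.451 RPM, and the 0 reads of the deep blastocyst library allow up to 0.212 RPM. CDKN1C, an inhibitor of cyclin-dependent kinases (cow chromosome 29, 49368787 to 49370785), had 2 reads in the oocyte library (0.406 RPM) and 0 reads in the other 4 cow libraries. SLC22A18, a membrane transporter of the organic cation family (cow chromosome 29, 49332572 to 49351638), had 0 reads in all 5 cow libraries, which allows up to 0.769 RPM in the shallowest of them. None of these genes exceeded 3 reads in a cow library, so no change between stages was detectable for them.

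Symbols without a match were looked for by place, and no row without a symbol was taken as one of them. In RefSeq's cow assembly ARS-UCD2.0 KCNQ1 lies between CDKN1C and TRPM5. The cow table has 2 rows with an identifier and no symbol between these genes, and the most reads either had in a library was 3. H19 lies between IGF2 and MRPL23 in that assembly, and the cow table has 0 rows between them. A pig row named H19_2, a stretch of 68 bases, had 0 reads in all 5 pig libraries. It was not taken as H19. Pig rows without a symbol also lie where IGF2 and CDKN1C could be sought. Of 3 such rows between INS and H19_2, 1 had reads in every pig library, at 2.37, 2.66, 6.63, 1.67 and 1.34 RPM. Of the rows between SLC22A18 and KCNQ1, 1 had 3 reads in the morula and 10 in the blastocyst library (2.68 RPM). No table used here pairs these rows with a gene, so they give no level for an unmatched symbol.

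**Figure D1:**
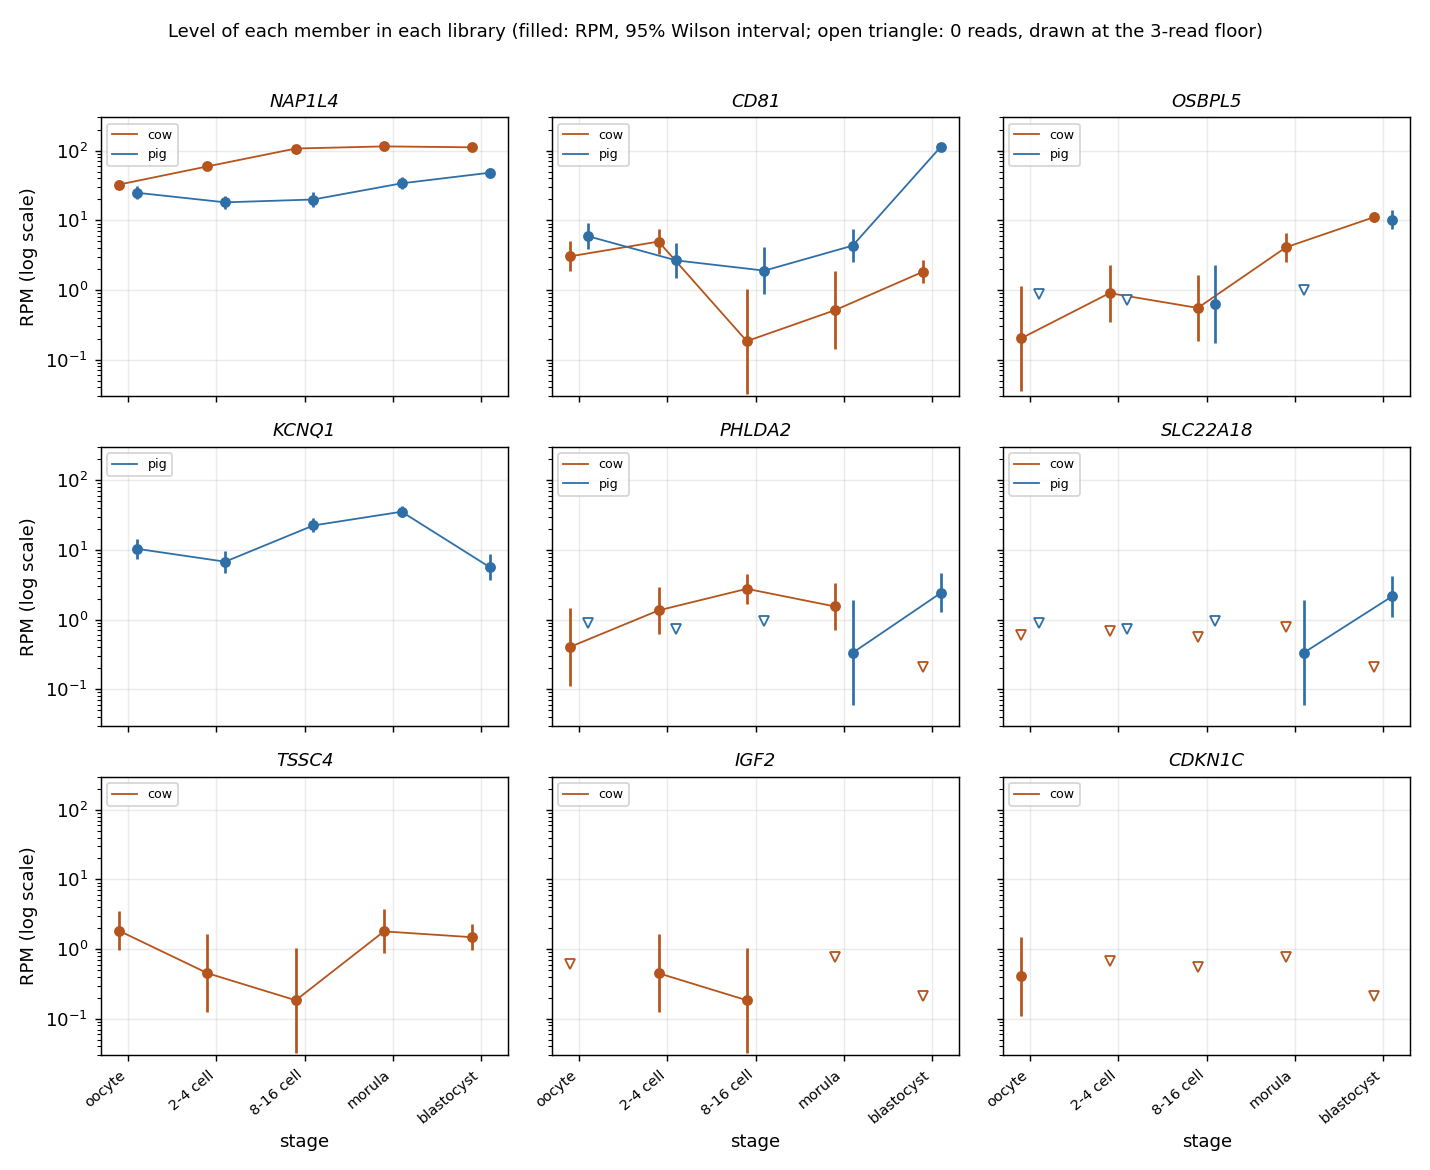
Level of each matched gene in each library, in RPM on a log axis, for cow (brown) and pig (blue); vertical bars are 95% Wilson intervals from the reads, and an open triangle marks 0 reads, drawn at the floor of 3 reads. NAP1L4 is seen in all 10 libraries, pig CD81 stands at 114 RPM in the blastocyst library against at most 5.92 RPM before it, and IGF2, CDKN1C and cow SLC22A18 lie at or near the floor.

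PHLDA2, a small pleckstrin homology protein that restrains placental growth, was read in cow embryos before the blastocyst and in the pig blastocyst library. In cow (chromosome 29, 49329504 to 49330559) it had 2, 6, 15, 6 and 0 reads from oocyte to blastocyst, which are 0.406, 1.35, 2.76, 1.54 and 0 RPM. The 8-16 cell library was thus the highest (95% Wilson interval 1.67 to 4.56 RPM), although its interval overlapped those of the 2-4 cell and morula libraries. Against the 8-16 cell library the floor of the blastocyst library was 13.1-fold lower (counting interval from 9.36), and the difference was -1.82. Against the morula library that floor was 7.27-fold lower (from 4.28), and the difference was -1.26. Neither difference reached 2. In pig (chromosome 2, 2057680 to 2058694) the reads were 0, 0, 0, 1 and 9. The pig blastocyst level of 2.41 RPM (1.27 to 4.59) was 2.72-fold above the floor of the oocyte library (counting interval from 1.79).

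Pig SLC22A18 (chromosome 2, 2033597 to 2058011) had nearly the same reads as pig PHLDA2, with 0, 0, 0, 1 and 8. Its blastocyst level was 2.14 RPM (1.09 to 4.23), 2.41-fold above the floor of the oocyte library (counting interval from 1.55), with a difference of 1.31. The rows of both pig genes overlap by 332 bases on opposite strands. Whether reads were counted by strand is not given in the sources used here, so a read in the overlap cannot be assigned to either gene. The cow rows of these genes do not overlap.

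KCNQ1, the pore subunit of a voltage-gated potassium channel, was highest in the pig morula library and fell at the blastocyst. Its row spans 314200 bases of pig chromosome 2 (1675304 to 1989503), including the introns. The levels were 10.4 RPM in the oocyte library (7.45 to 14.4), 6.77 RPM at 2-4 cells (4.68 to 9.78), 22.4 RPM at 8-16 cells (17.8 to 28.3), 35.3 RPM in the morula library (29.2 to 42.7) and 5.63 RPM in the blastocyst library (3.68 to 8.61). The morula and 8-16 cell libraries stood above the other 3 with no overlap of intervals, and the 3 low libraries overlapped in part. From the morula to the blastocyst KCNQ1 fell 6.27-fold (counting interval 3.90 to 10.5), a difference of -2.45. With a pseudocount of 5 RPM the difference was -1.92 and was not called. KCNQ1 stood 3.31-fold higher at 8-16 cells than at 2-4 cells (2.11 to 5.33), a difference of 1.59 that did not reach 2. From 2-4 cells to the morula it rose 5.22-fold (3.41 to 8.22), a difference of 2.22 that did. From oocyte to blastocyst the difference was -0.78. The antisense RNA of this region starts inside KCNQ1. Without stated strand and exon handling, its reads and those of KCNQ1 cannot be told apart. A row with an identifier and no symbol, on the other strand within KCNQ1, had 0 reads in all 5 pig libraries.

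NAP1L4, a histone chaperone that handles histone H2A and H2B, was the one gene of the set read well in every library. In cow (chromosome 29, 49264642 to 49316917) it stood at 32.7 RPM in the oocyte library (28.0 to 38.1), 59.5 RPM at 2-4 cells (52.7 to 67.1), 107 RPM at 8-16 cells (98.96 to 116), 115 RPM in the morula library (105 to 126) and 112 RPM in the blastocyst library (106 to 117). The first 3 cow libraries were in ascending order without overlap of intervals, and the last 3 overlapped. From oocyte to 8-16 cells the cow level was 3.29-fold higher (2.76 to 3.94), a difference of 1.69, and from oocyte to blastocyst 3.42-fold higher (2.91 to 4.05), a difference of 1.74. The latter was not called as deposited, but reached 2.15 when scaled to non-mitochondrial gene reads and 2.05 with quantile normalisation. From 8-16 cells to the morula the difference was 0.10, or -0.01 with median scaling. From the morula to the blastocyst it was -0.04, or 0.24 on non-mitochondrial gene reads.

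In pig NAP1L4 (chromosome 2, 2067870 to 2117523) stood at 24.9 RPM in the oocyte library (20.1 to 30.8), 18.1 RPM at 2-4 cells (14.5 to 22.7), 19.9 RPM at 8-16 cells (15.6 to 25.5), 34.0 RPM in the morula library (28.0 to 41.2) and 48.3 RPM in the blastocyst library (41.7 to 55.8). The intervals of the first 3 pig libraries overlapped, and the blastocyst library stood above all others. The blastocyst level was 1.94-fold that of the oocyte (1.49 to 2.55), a difference of 0.93, and 2.66-fold that of the 2-4 cell library (2.02 to 3.53). In pig the level was thus highest in the last library, whereas the last 3 cow libraries did not differ beyond counting error.

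TSSC4, which takes part in assembly of the U5 splicing particle, was read at low levels in cow (chromosome 29, 49836432 to 49840072). It had 9, 2, 1, 7 and 21 reads, or 1.83, 0.451, 0.184, 1.80 and 1.48 RPM. The oocyte, morula and blastocyst libraries did not differ beyond counting error. The 8-16 cell library, with 1 read, was 9.92-fold lower than the oocyte library, with a wide counting interval of 1.37 to 435. No TSSC4 difference reached 2.

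CD81, a tetraspanin that organises receptors in the cell membrane, was highest in the blastocyst library in pig and in the 2-4 cell library in cow. In pig (chromosome 2, 1625551 to 1645858) it stood at 5.92 RPM in the oocyte library (3.83 to 9.15), 2.66 RPM at 2-4 cells (1.48 to 4.76), 1.90 RPM at 8-16 cells (0.869 to 4.13), 4.33 RPM in the morula library (2.53 to 7.41) and 114 RPM in the blastocyst library (104 to 126). The intervals of the first 4 pig libraries overlapped, and the blastocyst library stood far above them. The 2-4 cell level was 2.23-fold below the oocyte level, with a counting interval that only just excluded 1 (1.02 to 5.15). The difference was -0.92. Pig CD81 rose 26.4-fold from the morula to the blastocyst (15.3 to 50.0), a difference of 4.43, and 19.3-fold from the oocyte (12.3 to 31.9), a difference of 4.06. Trophectoderm markers went from 520 RPM in the pig morula library to 8781 RPM in the blastocyst library at the same step. Their part in the CD81 level was not tested, and more cells of a type and more RNA per cell cannot be told apart in such libraries.

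In cow CD81 (chromosome 29, 49842969 to 49848639) had 15, 22, 1, 2 and 26 reads. These are 3.04 RPM in the oocyte library (1.84 to 5.02), 4.96 RPM at 2-4 cells (3.27 to 7.51), 0.184 RPM at 8-16 cells (0.0325 to 1.04), 0.513 RPM in the morula library (0.141 to 1.87) and 1.83 RPM in the blastocyst library (1.25 to 2.69). The highest level, at 2-4 cells, was 1.63-fold the oocyte level (0.808 to 3.38), which is not beyond counting error. Cow CD81 fell from 2-4 to 8-16 cells by 2.33 on the log2(RPM + 1) scale, to a single read, a 26.9-fold ratio with a counting interval of 4.35 to 1111. This call ended with a pseudocount of 5 RPM, where the difference was -0.94. The cow blastocyst library was 2.70-fold below the 2-4 cell library (1.46 to 4.96) and did not differ from the oocyte library beyond counting error, with a 1.66-fold ratio (0.817 to 3.25) and a difference of -0.51. The called change was thus a fall by 8-16 cells in cow and a rise at the last stage in pig.

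OSBPL5, a lipid transfer protein of the oxysterol-binding protein family, rose between the oocyte and the blastocyst in cow and in pig. In cow (chromosome 29, 49122352 to 49157383) it had 1, 4, 3, 16 and 158 reads, or 0.203, 0.901, 0.552, 4.10 and 11.14 RPM. The cow blastocyst (9.53 to 13.0) and morula (2.53 to 6.67) libraries did not overlap with each other or with the 3 earlier ones. Cow OSBPL5 rose from oocyte to blastocyst by 3.34, a 54.9-fold ratio with an interval of 9.72 to 2183 because the oocyte library held 1 read. In pig (chromosome 2, 2200244 to 2285854) it had 0, 0, 2, 0 and 38 reads, and the blastocyst level was 10.2 RPM (7.42 to 13.98). Pig OSBPL5 rose 11.5-fold from the floor of the oocyte library to the blastocyst (counting interval from 8.88), a difference of 3.14. From the floor of the morula library it rose 10.2-fold (from 7.90), a difference of 3.11. The cow gene was thus already read in the morula library, and the pig gene had 0 reads there. With a pseudocount of 5 RPM the oocyte to blastocyst difference was 1.63 in cow and 1.53 in pig, and that from the pig morula 1.52, and none of them was called.

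**Figure D2:**
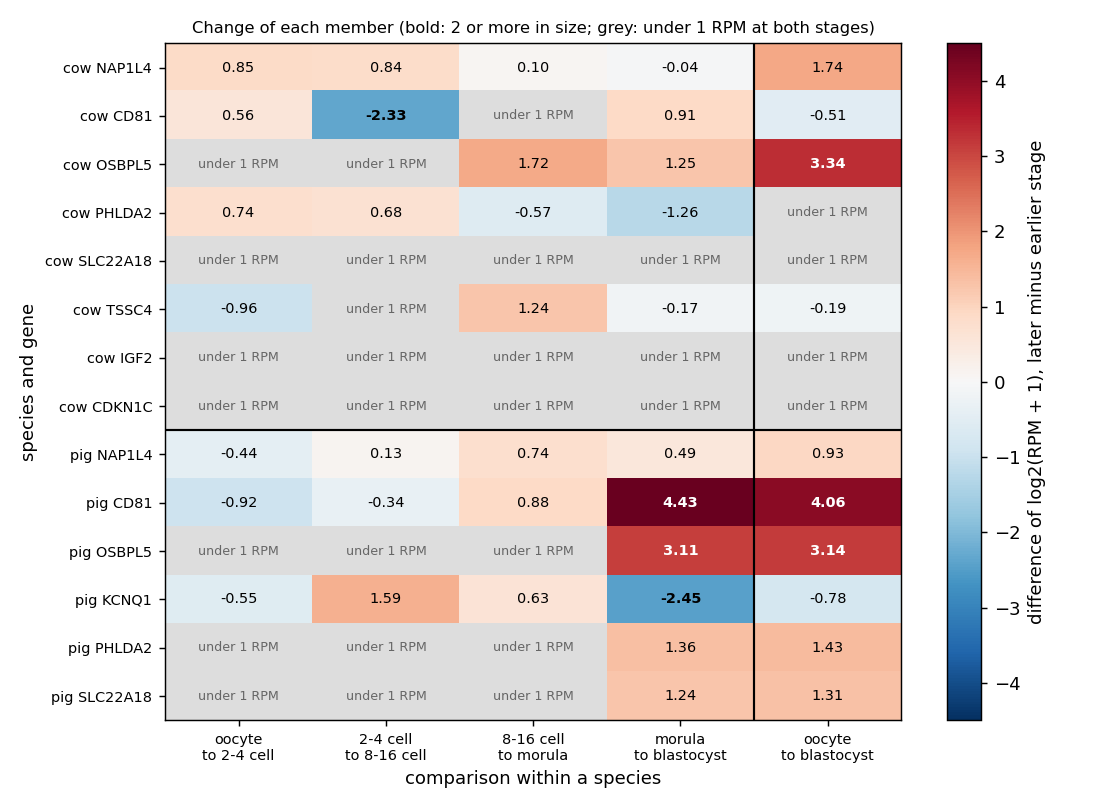
Difference of log2(RPM + 1), later minus earlier stage, for each matched gene (rows) at each of 4 consecutive steps and from oocyte to blastocyst (columns), with cow above and pig below the line. Red is higher and blue is lower at the later stage, bold values are 2 or more in size, and grey cells had under 1 RPM at both stages; the bold cells are cow CD81 at -2.33, cow OSBPL5 at 3.34, and pig CD81, OSBPL5 and KCNQ1.

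At most 1 of the compared genes changed at any step in cow, and in pig at most 3; the counts are set beside the share of all compared genes that changed. From oocyte to 2-4 cells 0 of 4 compared genes of the set changed in cow and 0 of 3 in pig, against 0.374% and 5.43% of all genes. At the step to 8-16 cells 1 of 3 changed in cow (CD81, lower) against 27.2% of all genes in either direction and 14.6% lower, and 0 of 3 in pig (4.87%). From 8-16 cells to the morula 0 of 4 changed in cow (11.8%) and 0 of 3 in pig (23.3%). From the morula to the blastocyst 0 of 5 changed in cow (23.4%), while in pig 3 of 6 did, CD81 and OSBPL5 higher and KCNQ1 lower (27.6%, with 13.8% higher and 13.8% lower). Between oocyte and blastocyst 1 of 4 changed in cow, OSBPL5, which was higher (40.2%, with 21.8% higher and 18.4% lower). In pig 2 of 6 did, CD81 and OSBPL5, both higher (45.2%, with 26.0% higher and 19.2% lower). Members below 1 RPM at both stages of a step were not compared and are not in these counts. The median difference from oocyte to blastocyst was 0.78 over the 4 cow genes and 1.37 over the 6 pig genes, beside 0.18 and 0.43 over all compared genes. Pig PHLDA2, SLC22A18 and OSBPL5 had 0 oocyte reads and were compared only through their blastocyst level. Cow OSBPL5, at 0.203 RPM in the oocyte library, was compared in the same way. The differences of these genes could only be positive. The pig median lies between PHLDA2 (1.43) and SLC22A18 (1.31), whose rows overlap. With 0 reads set to the floor the pig median was 0.89 and the cow median did not change. The medians over all genes were not set to the floor.

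**Figure D3:**
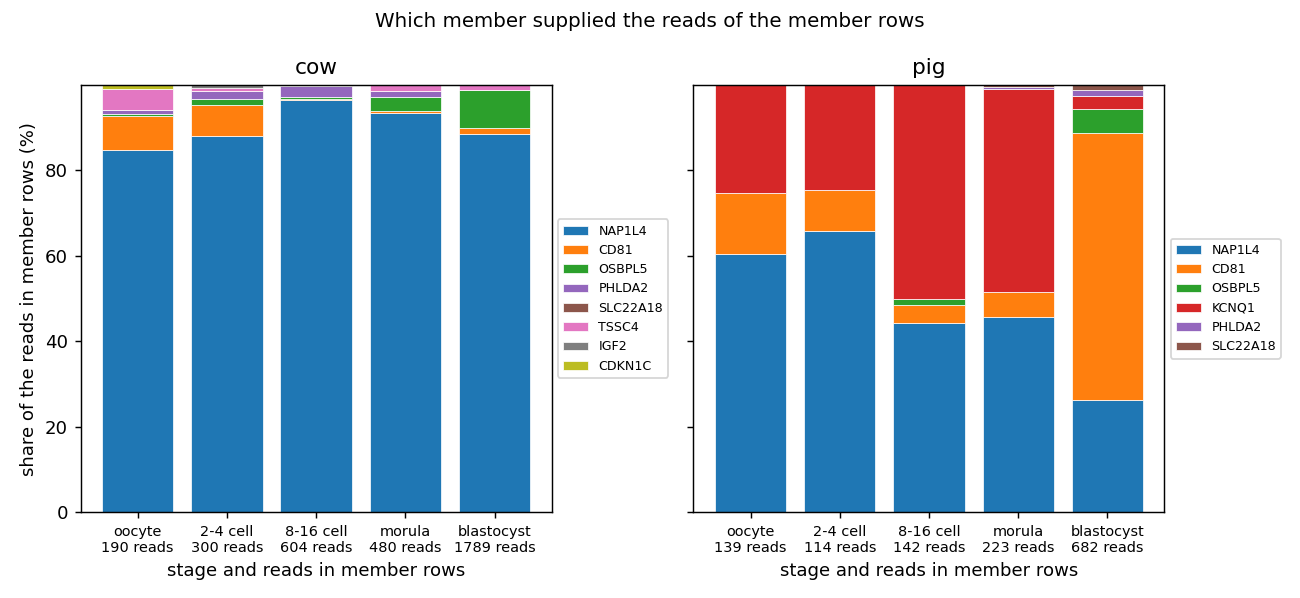
Share of the reads in the matched gene rows that each gene supplied (vertical axis, percent), for each library of cow (left) and pig (right), with the number of reads under each bar. NAP1L4 holds between 84.7% and 96.5% in cow. In pig KCNQ1, which has no matched row in cow, holds 50.0% at 8-16 cells, and CD81 holds 62.5% in the blastocyst library.

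The make-up of the reads in these rows is given for each species, with KCNQ1 counted in pig only. These are shares of reads, not levels per gene length. In cow NAP1L4 supplied 84.7% of 190 reads in the oocyte library (Wilson interval 78.9 to 89.2), 96.5% of 604 reads at 8-16 cells (94.7 to 97.7) and 88.5% of 1789 reads in the blastocyst library (86.98 to 89.9). In cow blastocysts OSBPL5 supplied 8.83% (7.60 to 10.2). In pig NAP1L4 supplied 60.4% of 139 reads in the oocyte library (52.1 to 68.2) and KCNQ1 25.2% (18.7 to 33.0). At 8-16 cells KCNQ1 supplied 50.0% of 142 pig reads (41.9 to 58.1) and NAP1L4 44.4% (36.5 to 52.6), so neither led beyond counting error. In the pig blastocyst library CD81 supplied 62.5% of 682 reads (58.8 to 66.0), NAP1L4 26.4% (23.2 to 29.8) and KCNQ1 3.08% (2.02 to 4.66). KCNQ1 has no matched row in cow, so the shares of both species do not rest on the same genes. Apart from KCNQ1, the pig 8-16 cell reads were 63 of NAP1L4, 6 of CD81 and 2 of OSBPL5. The lower NAP1L4 share there is thus not a difference between the species on shared genes. In the blastocyst libraries CD81 supplied 1.45% in cow (0.994 to 2.12), against 62.5% in pig.

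**Figure D4:**
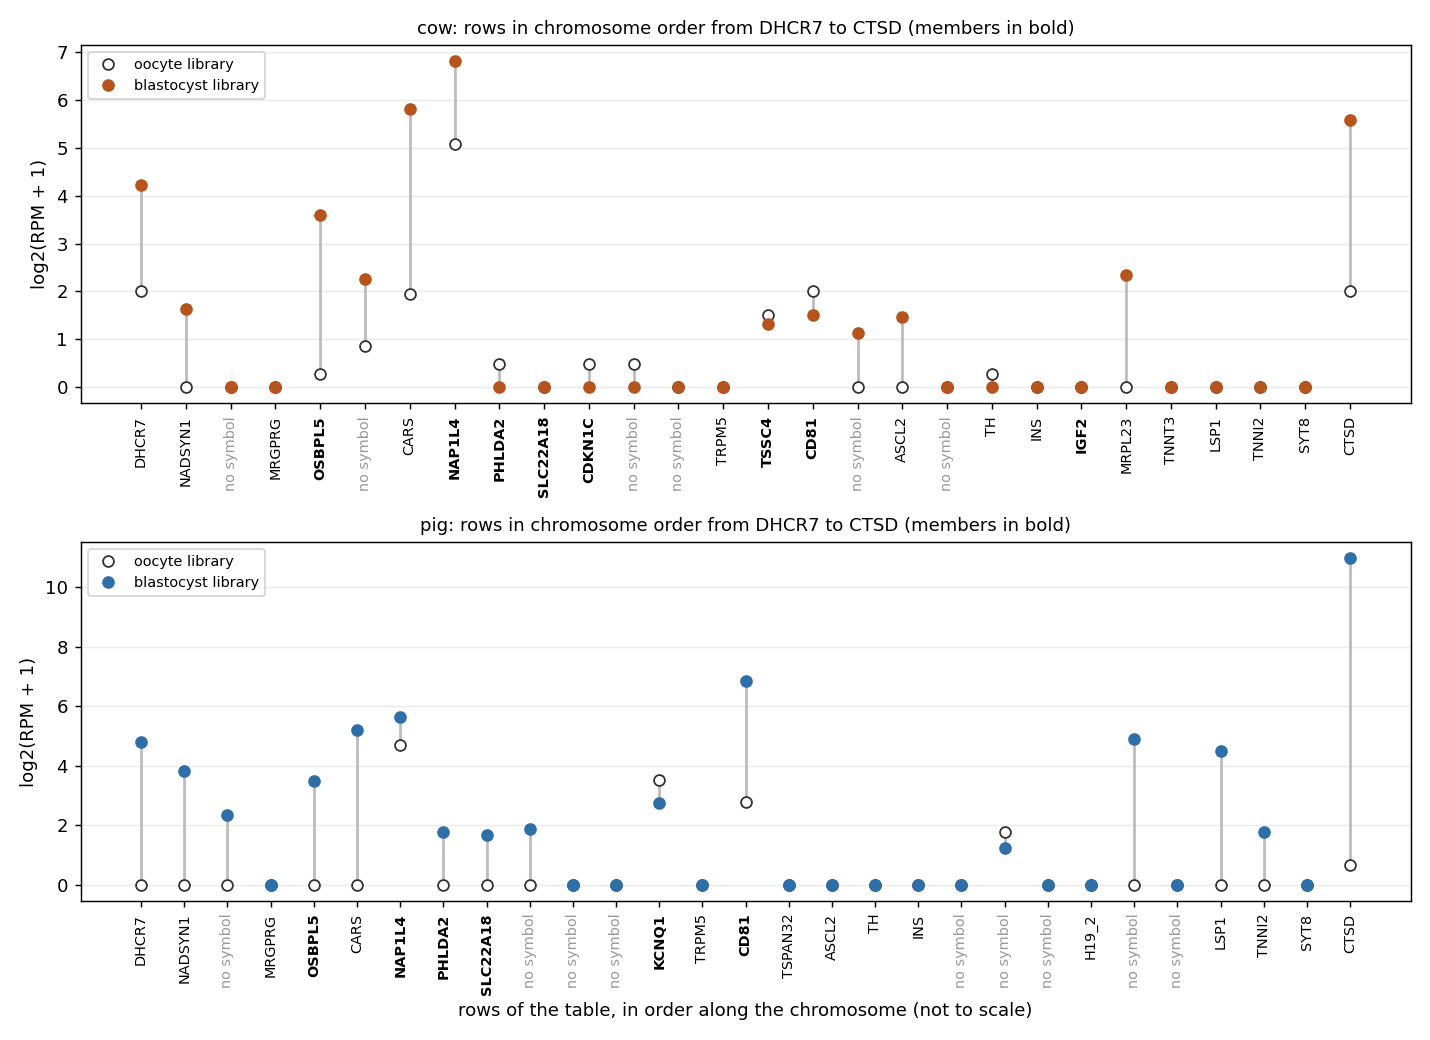
Level as log2(RPM + 1) in the oocyte library (open circles) and the blastocyst library (filled circles) for each row from DHCR7 to CTSD in chromosome order, with cow above and pig below and matched genes in bold; spacing is not to scale, and levels of different genes are not per length. A middle stretch from PHLDA2 to IGF2 in cow stays near 0 apart from low TSSC4, CD81, ASCL2 and 1 row without a symbol, while DHCR7, OSBPL5, CARS and CTSD are higher in the blastocyst library in both species.

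The rows around the set were described in chromosome order. From DHCR7 to CTSD the cow table has 28 rows, 11 of them at 0 reads in all 5 libraries, and the pig table has 29 rows, 13 of them at 0 reads throughout. Of 21 genes listed as neighbours, 17 were found in cow and 15 in pig, but NUP98, PGAP2, STIM1 and, in cow, RRM1 lie on cow chromosome 15 and pig chromosome 9. The whole list had 4 of 10 compared genes higher and 0 lower from oocyte to blastocyst in cow, and 6 of 9 higher and 0 lower in pig. Its median difference was 1.35 in cow and 3.48 in pig, or 1.13 and 2.90 with 0 reads set to the floor. The split by chromosome was made after the values were seen. On the chromosome of the set, 4 of 6 compared genes rose in cow, with a median difference of 2.16, and 5 of 6 in pig, with a median of 4.32, or 1.94 and 3.74 with 0 reads set to the floor. The compared pig genes there had at most 0.592 RPM in the oocyte library and passed the minimum only through the blastocyst library. Cow NADSYN1, ASCL2 and MRPL23, with 0 oocyte reads, entered the same way. For these genes the minimum fixed the direction of the difference, so the counts and medians do not by themselves show a rise. A further 6 of 13 genes found on cow chromosome 29 and 6 of 12 on pig chromosome 2 had 0 reads in all libraries. Over all compared genes 21.8% rose and 18.4% fell in cow and 26.0% rose and 19.2% fell in pig, with medians of 0.18 and 0.43. In cow the list had 2 genes higher with a pseudocount of 5 RPM or quantile normalisation. CARS, the cysteine tRNA synthetase gene between NAP1L4 and OSBPL5, went through 2.84, 7.43, 17.5, 21.5 and 55.6 RPM in cow. In pig CARS had 0, 0, 3, 0 and 132 reads and reached 35.4 RPM, 39.8-fold above the floor of the oocyte library (counting interval from 32.0). CTSD, the lysosomal protease cathepsin D, rose 15.4-fold in cow (9.28 to 27.7), from 3.04 to 46.9 RPM, and in pig from 2 reads to 2006 RPM. ASCL2, a trophoblast transcription factor gene that is imprinted in mouse, had 25 reads in the cow blastocyst library (1.76 RPM) and 0 reads in the other 4 cow and all 5 pig libraries; it was named here after its values were seen. TH and INS, next to IGF2 in cow, had at most 2 reads in any cow library and 0 reads in every pig library.

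The other genes of the insulin-like growth factor axis, which bind, process or signal for IGF1 and IGF2, were read only in part. Of 22 listed genes 22 were found in cow and 21 in pig. From oocyte to blastocyst 6 of 16 compared genes rose and 1 fell in cow, and 7 of 13 rose and 4 fell in pig. Over all compared genes 21.8% rose and 18.4% fell in cow, and 26.0% rose and 19.2% fell in pig. The median difference of the axis was 0.72 in cow and 2.998 in pig, or 2.42 in pig with 0 reads set to the floor, beside 0.18 and 0.43 over all genes. IGF1R, the signalling receptor, went through 30.6, 52.5, 16.0, 8.46 and 23.0 RPM in cow and 42.0, 46.6, 25.9, 112 and 57.6 RPM in pig. IGF2R, which takes up and degrades IGF2 and is imprinted in some species, went through 30.4, 28.2, 16.0, 14.1 and 23.4 RPM in cow. In pig IGF2R went through 32.0, 8.46, 14.2, 63.6 and 309 RPM and rose by 3.23 from oocyte to blastocyst. Both receptors were thus read in all 10 libraries; they were named for their role as receptors of IGF2.

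By the size of their change, IGF2BP1 and IGFBP2 led this axis in cow and PAPPA2 and GRB10 in pig. IGF2BP1, which binds IGF2 and other messenger RNAs, went through 0.406, 0.451, 12.0, 95.1 and 99.1 RPM in cow. IGFBP2, a binding protein for both growth factors, rose in cow from 1.42 to 54.9 RPM, 38.7-fold (18.7 to 96.5). In pig IGFBP2 had 0 reads in both the oocyte and the blastocyst libraries and 21 reads in the morula library. PAPPA2, a protease that cuts binding proteins, fell in pig from 66.6 to 0.804 RPM, 82.8-fold (28.0 to 405), and had a difference of -1.33 in cow, from 2.23 to 0.282 RPM. GRB10, an imprinted adaptor that dampens insulin and IGF receptor signalling, rose in both species. In cow GRB10 rose 11.96-fold (7.91 to 18.97), from 4.67 to 55.8 RPM. In pig it went from 0 reads to 23.9 RPM, 26.9-fold above the floor (counting interval from 21.4).

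Relatives of the matched genes were listed as a further set of 35 genes, of which 32 were found in cow and 31 in pig. From oocyte to blastocyst 7 of 22 compared relatives rose and 0 fell in cow, and 9 of 24 rose and 5 fell in pig, beside 21.8% higher and 18.4% lower of all genes in cow, and 26.0% and 19.2% in pig. The median difference was 0.64 in cow and 1.03 in pig, or 0.74 in pig with 0 reads set to the floor, beside 0.18 and 0.43 over all genes. With a pseudocount of 5 RPM 2 of 22 rose in cow, and 1 of 24 fell in pig. Tetraspanins related to CD81 led both lists. CD9 rose 77.2-fold in cow (50.4 to 125), from 4.26 to 329 RPM. In pig it went from 0 reads to 383 RPM, 431-fold above the floor (counting interval from 350). CD151, a partner of laminin-binding integrins, rose in cow from 0 reads to 35.2 RPM, 57.8-fold above the floor (counting interval from 46.8). In pig CD151 rose 222-fold (143 to 363), to 1312 RPM. CD63, found in late endosomes, rose 6.23-fold in cow (4.26 to 9.48), to 35.4 RPM, and from 1 read to 298 RPM in pig. In cow these 3 tetraspanins rose while CD81 had a difference of -0.51. They were named for the size of their change, CD9 and CD151 in cow and CD63 in pig. The contrast therefore does not set CD81 apart from its family. Of the same list, cow CD53 had a difference of 1.64, not called. Cow CD82 had 1 read and then 0 and was not compared.

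The kinase inhibitors related to CDKN1C, and the relatives of NAP1L4 and PHLDA2, are named here by family. CDKN1A and CDKN1B were read in all 5 cow libraries, whereas CDKN1C had reads in the oocyte library only. CDKN1A went through 2.84, 6.98, 5.89, 4.36 and 20.03 RPM in cow and 1.18, 0.967, 4.74, 6.66 and 44.2 RPM in pig, and rose from oocyte to blastocyst in both. CDKN1B went through 38.1, 56.5, 28.5, 16.2 and 17.2 RPM in cow, with 4, 0, 2, 25 and 17 reads in pig. NAP1L1, the closest relative of NAP1L4, went through 265, 251, 602, 744 and 765 RPM in cow and 42.0, 35.8, 101, 761 and 455 RPM in pig. Cow NAP1L1, like cow NAP1L4, stood higher from the 8-16 cell library on, whereas pig NAP1L1 reached its highest level in the morula library. PHLDA1, related to PHLDA2, had 1, 1, 27, 31 and 11 reads in cow and 17, 17, 23, 4 and 0 reads in pig.

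Among 11 proteins of the U5 splicing particle and its assembly, listed as partners of TSSC4, 3 of 11 compared genes rose and 0 fell in cow from oocyte to blastocyst, and 3 of 9 rose and 0 fell in pig. Over all genes 21.8% rose and 18.4% fell in cow, while 26.0% rose and 19.2% fell in pig. The list's median difference was 1.22 in cow and 1.28 in pig, beside 0.18 and 0.43 over all genes. With a pseudocount of 5 RPM 0 of 11 rose in cow and 1 of 9 in pig. AAR2, an assembly factor of U5, rose by 2.92 in cow, from 2 reads to 9.66 RPM, and by 2.57 in pig, from 6.51 to 43.7 RPM. CD2BP2, a U5 protein that leaves before splicing, rose by 2.83 in cow, from 1.42 to 16.2 RPM, and by 3.20 in pig, from 3 reads to 16.4 RPM.

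**Figure D5:**
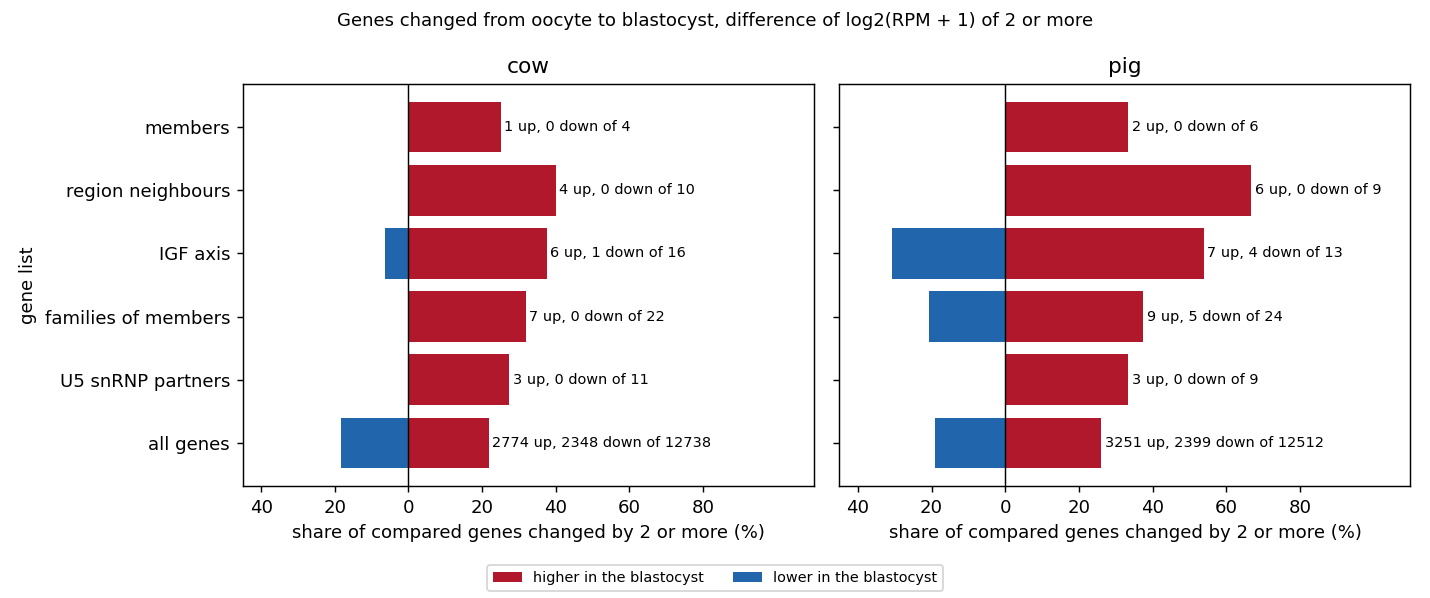
Share of compared genes that changed by 2 or more from oocyte to blastocyst on the log2(RPM + 1) scale (horizontal axis, percent; red to the right higher, blue to the left lower in the blastocyst library), for the matched genes, 4 related lists and all genes, in cow (left) and pig (right). Each bar carries its counts, from 1 of 4 matched genes in cow to 6 of 9 listed neighbours in pig, of which 3 lie on another chromosome; with so few genes the shares move by large steps.

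NAP1L4 and OSBPL5 reached 5 RPM in both species, so the genes with the most similar course were sought for these. Likeness was the Euclidean distance of log2(RPM + 1) over the 10 libraries, each species centred on its own mean, across 9685 shared symbols. Nearest to NAP1L4 were HNRNPA3 (distance 0.75), PANK3 (0.78) and NAXE (0.81), where the median symbol was at 3.56. HNRNPA3 went through 117, 187, 280, 302 and 459 RPM in cow and 76.1, 83.4, 73.0, 140 and 150 RPM in pig. Nearest to OSBPL5 were ERBB2 (0.98), GALK1 (1.04) and PQLC2 (1.09), with the median symbol at 4.82. ERBB2 had 0 reads in the first 3 cow and the first 4 pig libraries, 2.56 RPM in the cow morula library, and 15.6 RPM in the cow and 7.78 RPM in the pig blastocyst library.

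The species can be set side by side only as values of their own tables, which were scaled separately. OSBPL5 rose from oocyte to blastocyst in both, by 3.34 in cow and 3.14 in pig. NAP1L4 had differences of 1.74 in cow and 0.93 in pig, neither called. CD81 had a difference of -0.51 in cow and 4.06 in pig, and from morula to blastocyst PHLDA2 had 6 and then 0 reads in cow, and 1 and then 9 in pig. With 1 library per stage none of these differences between species was tested.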

How the data were processed

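Expression was measured in 10 libraries, 1 per stage and species. Per the labels' protocols, RNA was isolated with a PicoPure kit, amplified with the Ovation RNA-Seq System V2 and given 8 PCR cycles. Trim Galore 0.6.4, HISAT2 2.1.0 and the builds UMD3.1 (cow) and Sscrofa11.1 (pig) are named in the submitters' processing notes. Counting method, annotation, strand handling and removal of duplicates are not given in the sources used here.

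The authors deposited log2 values, 1 table per species. In each column between 99.94% and 99.99% of the values are whole multiples, within 0.01, of the value of 1 read, and 0 reads are written as 0.9 of a read; hence log2 RPM, not divided by length, with reads and library totals recovered. Amplified reads without molecular identifiers are not independent molecules.

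Computed here (Python 3.11.15, scipy 1.17.1) were levels with 95% Wilson intervals, ratios with exact conditional binomial intervals, and differences of log2(RPM + 1) on the deposited values, called at 2 with a minimum of 1 RPM. A fold against 0 reads uses a floor of 3 reads and is given only where the other library had more than 3. Its counting interval has a lower end only, which lies below the fold itself. No test was possible with 1 library per group. The calling code was run on simulated data, which checks the code and not the calls made here from single libraries. Named genes are all members, the 2 genes per context list and species with the largest change from oocyte to blastocyst, and 3 nearest patterns for members with 5 RPM in both species; others are marked in the text. The members and lists were chosen with earlier results of these data known. No member symbol had repeated rows. Alternatives covered the pseudocount, the minimum, the threshold, 3 scalings, equal depth, repeated symbols and, added after seeing the data, 0 reads taken as 0.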

Additional observations from a re-analysis of the deposited data

Results flagged for a closer look

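PHLDA2 had differences of opposite sign in the 2 species between the morula and the blastocyst. The difference of log2(RPM + 1) was -1.26 in cow, from 6 reads to 0 reads, and 1.36 in pig, from 1 read to 9 reads. Neither reached 2. The counting interval of the ratio excluded 1 in both, in pig only just, at 7.25-fold (1.004 to 318). The pig row overlaps SLC22A18. Each species gave 1 library per stage, so the difference between them was not tested.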

How the results depend on the processing

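Of the 110 counts of changed genes recomputed under an alternative, 96 were within 1.5 times the count as reported and 14 were not; no called difference changed sign. A pseudocount of 5 RPM gave 0 changed genes in place of 1 for cow from 2-4 to 8-16 cells and from oocyte to blastocyst, and 1 in pig in place of 3 from morula to blastocyst and of 2 from oocyte to blastocyst (CD81 in both). A minimum of 5 RPM gave 0 for the cow step to 8-16 cells. A pseudocount of 0.5 RPM gave 1 (OSBPL5) in place of 0 for cow from 8-16 cells to morula. Calling at 1 gave 2 for that cow step, for cow from morula to blastocyst and from oocyte to blastocyst, 1 for pig from 2-4 to 8-16 cells, 5 for pig from morula to blastocyst and 4 for pig from oocyte to blastocyst. Scaling to non-mitochondrial gene reads and quantile normalisation each gave 2 for cow from oocyte to blastocyst, adding NAP1L4. With a pseudocount of 5 RPM, cow genes that rose from oocyte to blastocyst numbered 2 of 10 neighbours (in place of 4; also 2 with quantile normalisation), 3 of 16 of the growth factor axis (6), 2 of 22 relatives (7) and 0 of 11 U5 partners (3); in pig 1 of 9 U5 partners rose (3) and 1 of 24 relatives fell (5). Calling at 1 gave 7 neighbours, 11 relatives and 6 U5 partners that rose and 1 neighbour, 2 genes of the growth factor axis, 5 relatives and 3 U5 partners that fell in cow, and 5 U5 partners that rose and 1 that fell in pig. In place of 0, 1 relative in cow and 1 U5 partner in pig fell with median scaling, and 1 U5 partner in each species with quantile normalisation and in cow at equal depth. Over all compared genes from oocyte to blastocyst, scaling to non-mitochondrial gene reads shifted the median by 0.42 in cow, and quantile normalisation by -0.20 in cow and -0.41 in pig. Of the differences not called, NAP1L4 at both cow steps after 8-16 cells (-0.04 from morula to blastocyst, or 0.35 with quantile normalisation) and at the pig step to 8-16 cells (0.13, or -0.20 with median scaling), and cow TSSC4 from oocyte to blastocyst (-0.19, or 0.07 on non-mitochondrial gene reads) and from morula to blastocyst (-0.17, or 0.0036), changed sign with the scaling. Depth limits IGF2, CDKN1C, SLC22A18, TSSC4 and PHLDA2, which rest on at most 21 reads in a library. No paired analysis was possible because each group has 1 library.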

Other observations

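Rows with an identifier and no symbol held part of the reads of these regions, and no table given pairs them with a gene. ENSBTAG00000002702, between CD81 and ASCL2 in the cow table, had 0, 1, 4, 32 and 17 reads, or 8.21 RPM in morulae and 1.199 RPM in blastocysts. ENSSSCG00000038364, between H19_2 and LSP1 in the pig table, had 0 reads in the first 3 libraries, 2.66 RPM in morulae and 28.96 RPM in blastocysts. A cow row between OSBPL5 and CARS had 4, 2, 27, 17 and 54 reads, at most 4.97 RPM, and a pig row between NADSYN1 and MRGPRG had 15 reads in the blastocyst library only (4.02 RPM). These rows were chosen after their values were seen. The other rows of this kind from DHCR7 to CTSD are described among the results or had 0 reads in all 5 libraries of their species.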
